A study of Rattus norvegicus with 18 samples.

Results

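The question addressed here is whether the response of rat hepatocytes to 100 µM EMD at 72 h differed from the response at 24 h, gene by gene. EMD is a compound that, per the study, activates both PPARα and PPARγ, nuclear receptors of lipid metabolism. The comparison drew on 12 of the 18 arrays of the series, 3 in each of 4 groups, and the other 6 arrays, from cultures with 30 µM EMD, entered only the estimate of the spread and a comparison near the end. The groups were vehicle (0.1% DMSO) for 24 h, 100 µM EMD for 24 h, vehicle for 72 h and 100 µM EMD for 72 h. All 4 held primary hepatocytes of Wistar rats, cells isolated from liver and not a line, which had first attached to the dish and then received Dulbecco's modified Eagle's medium with gentamicin, insulin and hydrocortisone, so the vehicle cultures carried these hormones and the solvent too. Neither the age nor the sex of the rats is given in the sources used here, and no untreated tissue was included.

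PPARα is a nuclear receptor that binds fatty acids and fibrate-like drugs, pairs with RXR and switches on genes for the uptake, transport and oxidation of fatty acids in mitochondria, peroxisomes and microsomes. In rodent liver its activation is known for the growth of peroxisomes and for a strong induction of the CYP4A enzymes. Hepatocytes in culture also change with time without any drug, and many liver functions decline. A response that differs between the times can therefore arise in the treated cultures, in the vehicle cultures or in both, and each is described below.

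A response is the difference between the mean log2 level with EMD and the mean with DMSO at 1 time, and the interaction is the response at 72 h minus the response at 24 h. A value of 1 on this scale is a 2-fold change, errors are standard errors of the fit (SE) with 3 arrays in each group, and a probe set was called where the Benjamini-Hochberg adjusted p of limma's moderated test was under 0.05 over all 31042 probe sets. The median SE was 0.116 for a response and 0.164 for an interaction, and the small number of arrays limits this precision. RMA values have no detection call, and a level under 5.08, the median of all values, may hold little signal over background, so that a change from there is understated or uncertain in size. Medians of the 18 arrays lay between 5.05 and 5.11, and the lowest correlation between any 2 arrays was 0.961. The replicate 1 array of the EMD 72 h group stood apart, with the lowest array weight of the 18 (0.405). RNA integrity can be read from control probe sets at the 3′ and 5′ ends of a transcript. For actin their log2 difference was 1.31 ± 0.0393 (SD, n = 3) with DMSO and 1.29 ± 0.0889 with EMD at 24 h, and 0.698 ± 0.0536 and 0.847 ± 0.00578 at 72 h. The difference for hexokinase at 24 h was 1.40 ± 0.121 with DMSO and 1.51 ± 0.103 with EMD, and at 72 h 1.57 ± 0.0657 with DMSO and 1.67 ± 0.113 with EMD, while that for Gapdh lay between 0.141 and 0.289 in all groups. The part of RNA integrity in the results was not tested. Of 11 measured hepatocyte markers none had a group mean under the median of all values, and the log2 of their summed level lay between 16.1 and 16.8 in the 4 groups. Stellate cell and fibroblast markers were under that median for 12 or 13 of 14 genes, endothelial markers for 9 of 10, macrophage markers for 5 to 7 of 12 and cholangiocyte markers for 5 or 6 of 9. The summed macrophage markers were at 11.3 to 11.7 with DMSO and 10.6 to 10.9 with EMD at 24 h, and at 10.6 to 11.3 and 9.84 to 9.93 at 72 h, and the part of these cells was not tested. In such bulk RNA fewer cells of a type and less RNA per cell cannot be told apart.

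The response grew in extent with time, while few single genes had a response that differed between the times beyond the replicate error. EMD changed 1867 probe sets at 24 h (6.01% of those tested, 950 or 3.06% higher and 917 or 2.95% lower) and 5308 at 72 h (17.1%, 2302 or 7.42% higher and 3006 or 9.68% lower). The interaction was called for 215 probe sets (0.693%), of which 76 (0.245%) were higher at 72 h and 139 (0.448%) lower, and 3598 had an unadjusted p under 0.05. Of the 3891 probe sets called at 72 h and not at 24 h, only 148 (3.8%) had a called interaction, so for the rest a difference between the times was not shown. The median interaction over all probe sets was 0.0232. With 1 symbol each, 185 of the 215 probe sets named 165 genes, and 56 of the 215 had a group mean under the median of all values. In all 215 the 9 differences between single EMD and DMSO arrays at 72 h did not overlap the 9 at 24 h, as was so for 1372 of the 31042 probe sets.

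**Figure D1:**
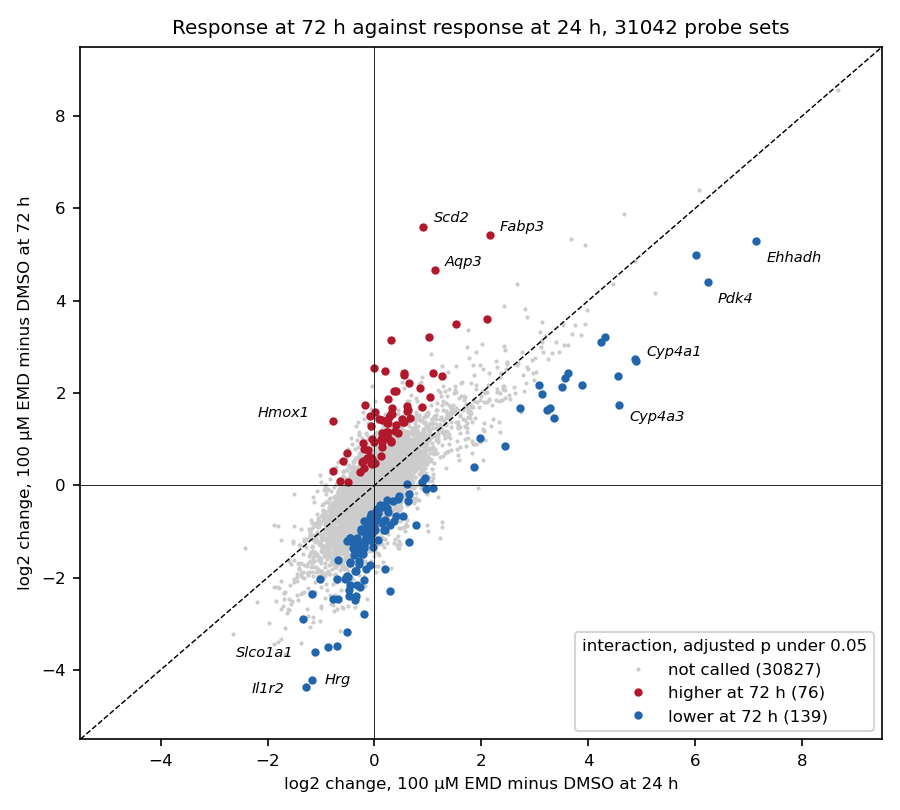
Response to 100 µM EMD at 72 h (y axis, log2 change) against the response at 24 h (x axis, log2 change) for 31042 probe sets, with the line of equal responses dashed. Red points are the 76 probe sets with an interaction called higher at 72 h, blue points the 139 called lower, and the blue points at the right, such as Cyp4a3 (4.57 at 24 h and 1.75 at 72 h), were induced at both times and less so at 72 h.

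The count depended on single arrays. It was 141 without DMSO 24 h replicate 2, 83 without DMSO 24 h replicate 3, 57 without DMSO 72 h replicate 2, 136, 110 and 64 without EMD 24 h replicate 1, 2 and 3, and 88 and 68 without EMD 72 h replicate 2 and 3. Without the array that stood apart, EMD 72 h replicate 1, it was 800 (355 higher and 445 lower), and these included all 215. The direction of all 215 was kept in each of the 12 fits with 1 array left out, and 52 (16 higher and 36 lower) were called in every one of them. A fit on the 12 arrays of the contrast alone called 76, 75 of them among the 215. Of the 51 called probe sets described in detail below, 22 were called whichever array was left out: Scd2, Aqp3, Fabp3, Lrrc39, Soat1, Krt23, Nrp1, Abhd3, Il1r2, Cyp4a3, Cyp4a1, Hsd11b1, Map1b, Vtn, Mfsd2a, Acot3, Eci1, Angptl4, Chac1, Pdk4, Itih3 and Ifrd1. All the other 29 lost the call without DMSO 72 h replicate 2, and leaving out another array ended from 3 to 27 of the 51 calls, except that of EMD 72 h replicate 1, which ended none.

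Sorted by the responses at each time, 148 of the 215 were called at 72 h only (54 higher and 94 lower), 30 at both times with a larger response at 72 h (18 and 12), 21 at both times with a smaller one (0 and 21), 13 at 24 h only (3 and 10) and 3 at both times in opposite directions. The same contrast can be read along time. From 24 to 72 h, 6738 probe sets changed in the DMSO cultures (21.7%, with 11% rising and 10.7% falling) and 3843 in the EMD cultures (12.4%, with 6.77% rising and 5.61% falling). Among the 215, 95 changed with time in the DMSO cultures only, 78 in the EMD cultures only, 22 in both in 1 direction and 20 in both in opposite directions. Here "only" means that the change in the other arm was not called, which does not show that it was absent. Of the 76 higher interactions, 37 went with a rise in the EMD cultures only and 23 with a fall in the DMSO cultures only. Of the 139 lower ones, 72 went with a rise in the DMSO cultures only and 41 with a fall in the EMD cultures only.

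**Figure D2:**
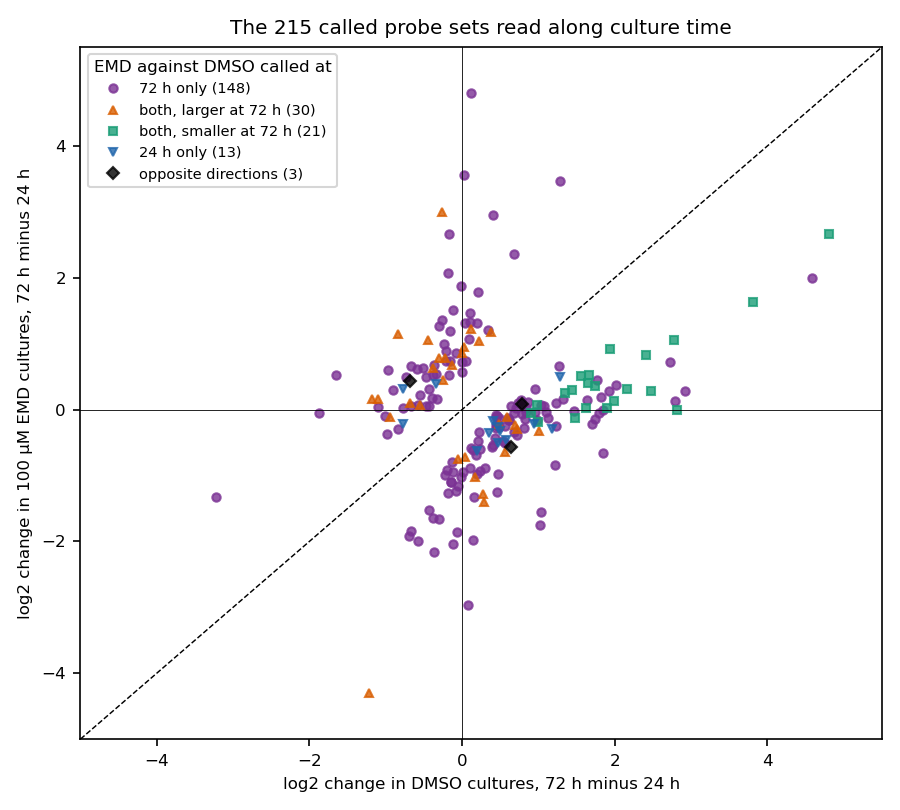
Change from 24 to 72 h in the EMD cultures (y axis, log2) against the change in the DMSO cultures (x axis, log2) for the 215 probe sets with a called interaction, marked by when EMD against DMSO was called, with the line of equal change dashed. The 21 squares, smaller at 72 h, all lie to the right of 0, with changes in DMSO cultures from 0.904 to 4.8.

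The 5 genes with the largest positive interactions, Scd2, Aqp3, Fabp3, Lrrc39 and Soat1, rose with time in the EMD cultures, and in the DMSO cultures no change was called in these probe sets. Scd2, a desaturase that makes monounsaturated fatty acids, was at 3.39, 3.10 and 3.32 with DMSO and 4.37, 3.88 and 4.31 with EMD at 24 h, and at 3.29, 3.13 and 3.73 with DMSO and 10.13, 8.68 and 8.15 with EMD at 72 h. The 3 late EMD arrays stood far above all others, and the interaction was 4.69 ± 0.57 (adjusted p = 0.0015). A second Scd2 probe set had a called interaction of 2.27, and 2 dim ones had 0.32 and 0.21, neither called. Aqp3, a channel for water and glycerol, was at 4.39, 4.15 and 4.56 with DMSO and 4.53, 6.31 and 5.64 with EMD at 24 h, and at 4.13, 4.67 and 4.35 against 8.85, 8.98 and 9.30 at 72 h. One EMD array at 24 h lay within the range of the DMSO arrays and the others above it, and the interaction was 3.53 ± 0.59 (adjusted p = 0.011).

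A fatty acid binding protein known from heart and muscle and a PPAR target, Fabp3, responded at both times and more at 72 h. It was at 4.89, 5.08 and 5.08 with DMSO and 7.16, 7.37 and 6.99 with EMD at 24 h, and at 4.89, 4.84 and 4.51 against 11.16, 9.53 and 9.85 at 72 h, an interaction of 3.27 ± 0.44 (adjusted p = 0.0028). Soat1, which esterifies cholesterol, showed no response at 24 h (-0.01 ± 0.22) and one of 2.53 ± 0.22 at 72 h. Its levels were 3.88, 4.05 and 3.98 with EMD at 24 h and 6.23, 7.21 and 7.31 at 72 h, against 4.15, 3.85 and 3.95 and then 4.72, 4.15 and 4.28 with DMSO, so only the late EMD arrays were high. Its other probe set had a called interaction of 2.19, with a response of 1.03 at 24 h and 3.22 at 72 h, and it rose by 1.28 with DMSO and by 3.47 with EMD.

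The sterol exporter Abcg1 had an interaction of 1.68 ± 0.30 (adjusted p = 0.016), with 2 other dim probe sets at 0.08 and 0.10, neither called. In the called probe set it rose by 0.68 with DMSO and by 2.35 with EMD. Abca1, which loads cholesterol onto apolipoproteins, had 1.33 ± 0.24, but the interaction of a brighter Abca1 probe set was not called. Vldlr, a receptor for triglyceride-rich particles, had 1.24, 1.21 and 1.14 in 3 called probe sets of 4. Abca1 and Vldlr are named after their values were seen. In these called probe sets both genes fell with time in the DMSO cultures (by 0.66 for Abca1) and rose in the EMD cultures (by 0.66 for Abca1). In a further group of genes a rise was called in the EMD cultures and no change in the DMSO cultures. They were Lrrc39, a leucine-rich repeat protein (2.84 ± 0.40, other probe set 1.57 and called), Pkhd1l1 (1.89 ± 0.41) and the keratin Krt23 (1.64 ± 0.23). Also among them were the semaphorin and VEGF co-receptor Nrp1 (1.62 ± 0.16, adjusted p = 0.00057, other probe set 0.69) and Abhd3, a phospholipase (1.58 ± 0.23, other probe set 0.27). The peptide hormone Apln (1.35 ± 0.30, other probe set 0.49) was a further one. None of these other probe sets was called, and those of Nrp1 and Abhd3 were the brighter ones. The called probe sets of Nrp1 (2.92 to 4.80) and Abhd3 (3.19 to 5.00) had all 4 group means under the median of all values. Of the 15 largest positive interactions with a symbol 10 had a group mean under the median of all values, namely Scd2, Aqp3, Fabp3, Lrrc39, Soat1, Pkhd1l1, Abcg1, Krt23, Nrp1 and Abhd3. Of the 15 largest negative ones 6 did, namely Il1r2, Lhfpl6, Slco1a1, Cd36, Map1b and Ptprz1.

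**Figure D3:**
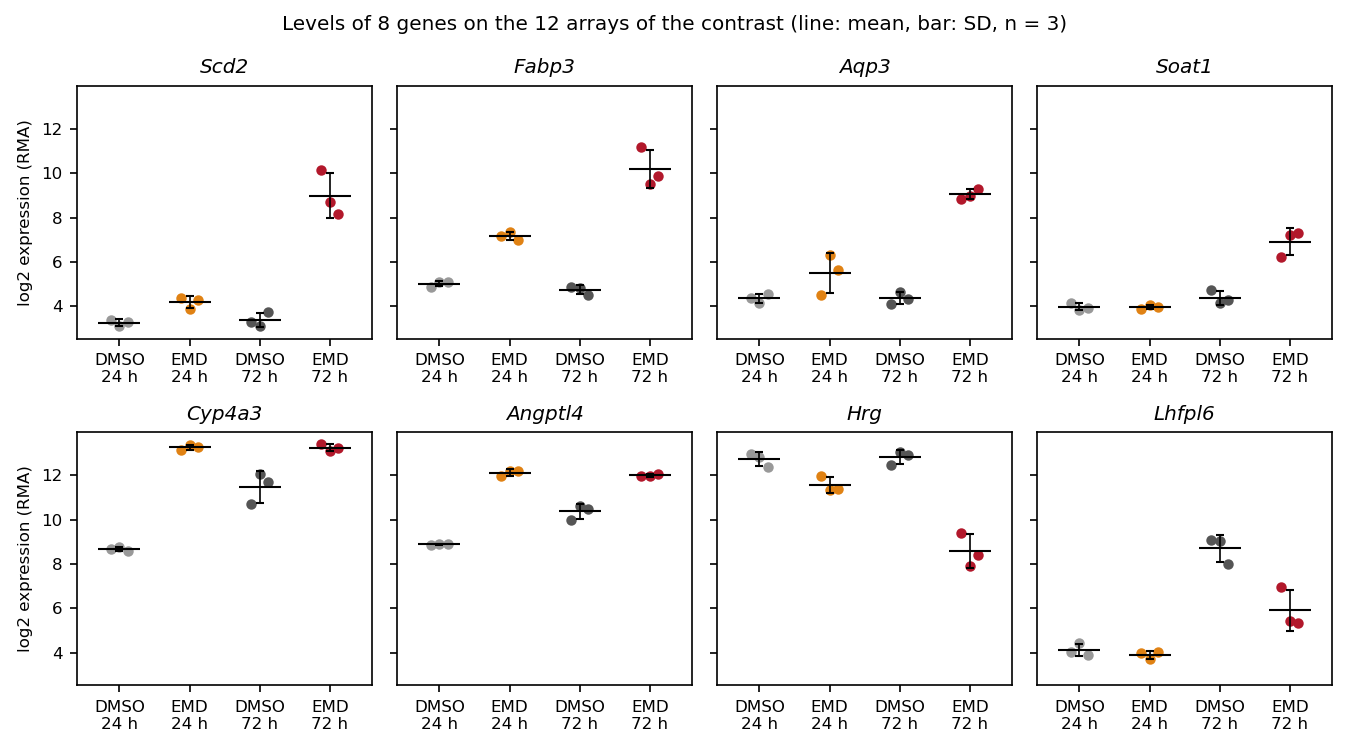
log2 RMA level (y axis) of 8 genes on the 12 arrays (points), by group, with the mean (line) and SD (bar) of 3 arrays. Scd2, Fabp3, Aqp3 and Soat1 were high in the late EMD arrays, Cyp4a3 and Angptl4 stood at the same level with EMD at both times while DMSO rose, Hrg dropped in the late EMD arrays, and Lhfpl6 rose most in the late DMSO arrays.

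A different set of genes had positive interactions in which the level with DMSO was lower at 72 h than at 24 h. Scd, the main liver desaturase, was at 12.92, 12.94 and 12.86 with DMSO and 13.69, 13.74 and 13.84 with EMD at 24 h, and at 12.33, 11.86 and 11.23 against 13.95, 13.88 and 13.91 at 72 h. Its interaction was 1.26 ± 0.24 (adjusted p = 0.023). Between the times Scd fell by 1.10 in the DMSO cultures, and the change in the EMD cultures was 0.16. Hmox1, the heme oxygenase induced by oxidative stress and heme, was at 11.68, 11.48 and 12.37 with DMSO and 11.56, 11.05 and 10.60 with EMD at 24 h, and at 10.49, 9.87 and 10.22 against 11.29, 12.09 and 11.40 at 72 h. The groups overlapped at 24 h and not at 72 h, and the interaction was 2.17 ± 0.42 (adjusted p = 0.026). Of 20 measured genes of glutathione and targets of NRF2, an oxidative stress factor, Hmox1 alone had a called interaction. Among all genes 0.338% were called higher and 0.675% lower. The median of the 20 was 0.116, with 11 above 0 and 9 below. Macrophages express Hmox1 too, and their summed markers in the 4 groups are given above. The part of these cells in the Hmox1 interaction was not tested.

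Oat, the mitochondrial ornithine aminotransferase, fell by 0.84 with DMSO and rose by 1.14 with EMD (interaction 1.98 ± 0.41). The cytochrome P450 Cyp2c6v1 fell in both, by 3.23 with DMSO and by 1.32 with EMD (interaction 1.91 ± 0.36). Prr15, a proline-rich protein, fell with DMSO by 0.98 and its change with EMD was 0.60 (interaction 1.57 ± 0.28). Gpam, the mitochondrial acyltransferase that starts glycerolipid synthesis, differed from these. It rose by 0.63 with EMD and its change with DMSO, -0.38, was not called. Its interaction was 1.02 ± 0.21, and its other probe set had 0.88 (adjusted p = 0.0504). Of 22 measured genes of lipogenesis, desaturases and elongases, 3 were called higher (Scd2, Scd and Gpam) and 0 lower, with a median interaction of 0.144, beside 48 higher (0.338%) and 96 lower (0.675%) of 14217 genes and a median of 0.0227. Fasn, the fatty acid synthase, had 0.13 ± 0.35 and Acly, which supplies its acetyl-CoA, -0.0038 ± 0.21, neither called.

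The genes best known as PPARα targets were induced strongly at both times, and part of them less strongly at 72 h. Cyp4a3, a microsomal ω-hydroxylase of fatty acids, was at 8.66, 8.76 and 8.60 with DMSO and 13.12, 13.35 and 13.26 with EMD at 24 h. At 72 h it was at 10.68, 12.06 and 11.71 with DMSO and 13.40, 13.10 and 13.20 with EMD. The EMD level lay between 13.10 and 13.40 on all 6 arrays while the DMSO level rose by 2.81, and the response went from 4.57 ± 0.22 to 1.75 ± 0.22 (interaction -2.82 ± 0.31, adjusted p = 0.00091). Cyp4a1, the classical marker of this family, was at 7.85, 7.77 and 7.14 against 12.43, 12.50 and 12.55 at 24 h and at 9.55, 10.71 and 9.93 against 13.08, 12.59 and 12.64 at 72 h (interaction -2.20 ± 0.33, adjusted p = 0.0048). The Cyp4a genes are related paralogs, and their probe sets may read each other's transcripts, as may those of Scd and Scd2 and of Acot3 and Acot4. This was not tested. With DMSO at 24 h the mean level was 12.9 for Scd and 3.27 for the Scd2 probe set with the largest interaction.

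Angptl4, a secreted inhibitor of lipoprotein lipase, was at 8.85, 8.92 and 8.89 with DMSO and 11.96, 12.20 and 12.19 with EMD at 24 h, and at 10.00, 10.63 and 10.46 against 11.94, 11.98 and 12.07 at 72 h. Its DMSO arrays rose by 1.48, its EMD arrays changed by -0.12, and the interaction was -1.60 ± 0.18 (adjusted p = 0.00091). Eci1, an isomerase of mitochondrial β-oxidation, was at 10.39, 9.80 and 9.80 against 13.26, 13.31 and 13.27 at 24 h and at 11.57, 11.94 and 11.36 against 13.42, 13.20 and 13.28 at 72 h (interaction -1.60 ± 0.21, with a dim second probe set at 0.32). Ehhadh, which catalyses 2 steps of oxidation in peroxisomes, was at 6.45, 5.60 and 5.42 against 12.77, 13.01 and 13.13 at 24 h and at 7.30, 8.45 and 7.69 against 13.39, 12.77 and 13.17 at 72 h (interaction -1.85 ± 0.37, adjusted p = 0.029). In each of these genes the EMD and DMSO arrays did not overlap at either time.

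Pdk4, a kinase that spares glucose by blocking pyruvate dehydrogenase, went from a response of 6.24 ± 0.19 to one of 4.40 ± 0.19 (interaction -1.84 ± 0.27, adjusted p = 0.0042), but its other probe set had responses of 4.47 and 4.36 and an interaction of -0.11 ± 0.27 that was not called. Cpt1a, which admits fatty acids to mitochondria, had an interaction of -1.39 ± 0.30, with the other probe set at -0.61 and not called. Acot3 and Acot4, peroxisomal thioesterases, had -0.91 ± 0.15 and -1.19 ± 0.21. Creb3l3, a liver transcription factor of lipid metabolism, had -0.96 ± 0.18. The fatty acid transporter Cd36 differed in that it rose in both arms, from 5.63, 5.09 and 4.51 to 9.77, 9.95 and 9.91 with DMSO and from 9.35, 9.71 and 10.80 to 12.88, 12.29 and 12.67 with EMD. The rise was larger with DMSO, and the interaction was -2.14 ± 0.46 (adjusted p = 0.044).

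Together the probe sets called at both times and smaller at 72 h were 21, for 17 named genes. The others were Vnn1, Txnip, Ech1, Aig1, Miox and Rab30, named after their values were seen, with interactions from -1.72 (Vnn1) to -1.05 (Miox). The interaction of a brighter Rab30 probe set was not called. All 21 rose with time in the DMSO cultures, by 0.904 to 4.8 (median 1.75), and 7 changed in the EMD cultures, where the median change was 0.302. The mean EMD level of these probe sets at 24 h ran from 7.55 to 13.4, while the highest value on any array was 14.77, and the part of signal saturation was not tested. Other metabolic enzymes were called at 24 h only. Fbp1, of gluconeogenesis, had a response of 1.86 ± 0.20 at 24 h and 0.39 ± 0.20 at 72 h (interaction -1.47 ± 0.28). Agxt, an aminotransferase for glyoxylate, had 1.11 ± 0.17 and -0.05 ± 0.17 (interaction -1.16 ± 0.25).

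Promoters are shown for 3 of the genes induced at both times and smaller at 72 h (Cyp4a3, Eci1 and Acot4) and for Abhd3. Abhd3 was a late rise in a dim probe set, and its brighter probe set was not called. These promoters were chosen because each holds the core hexamer of the motif to which PPARα and RXR bind. They are RefSeq sequences of build GRCr8, 5′ to 3′ on the strand of the gene, from 250 bases before to 50 bases after the start of the gene, and capitals mark AGGTCA or its reverse complement.
Cyp4a3 promoter (chr5:134352187-134352486, minus strand): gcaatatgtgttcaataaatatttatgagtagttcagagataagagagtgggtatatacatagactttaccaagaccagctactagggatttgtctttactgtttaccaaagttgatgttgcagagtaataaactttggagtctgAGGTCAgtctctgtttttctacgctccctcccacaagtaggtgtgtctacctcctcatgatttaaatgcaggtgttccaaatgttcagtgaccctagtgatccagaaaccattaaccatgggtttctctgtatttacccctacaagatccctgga
Eci1 promoter (chr10:13961000-13961299, plus strand): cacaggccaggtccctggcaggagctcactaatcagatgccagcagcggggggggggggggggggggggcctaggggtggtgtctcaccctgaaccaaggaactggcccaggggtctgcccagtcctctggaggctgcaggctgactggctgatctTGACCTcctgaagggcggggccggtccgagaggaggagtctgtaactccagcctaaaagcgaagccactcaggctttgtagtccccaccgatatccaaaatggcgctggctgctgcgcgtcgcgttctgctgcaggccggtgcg
Acot4 promoter (chr6:109399604-109399903, plus strand): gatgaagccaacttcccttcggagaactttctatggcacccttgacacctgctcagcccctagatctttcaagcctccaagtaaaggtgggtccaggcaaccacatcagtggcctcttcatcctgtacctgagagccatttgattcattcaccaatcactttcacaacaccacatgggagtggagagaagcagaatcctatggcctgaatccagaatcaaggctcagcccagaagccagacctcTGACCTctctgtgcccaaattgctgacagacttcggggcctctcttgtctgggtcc
Abhd3 promoter (chr18:2051240-2051539, minus strand): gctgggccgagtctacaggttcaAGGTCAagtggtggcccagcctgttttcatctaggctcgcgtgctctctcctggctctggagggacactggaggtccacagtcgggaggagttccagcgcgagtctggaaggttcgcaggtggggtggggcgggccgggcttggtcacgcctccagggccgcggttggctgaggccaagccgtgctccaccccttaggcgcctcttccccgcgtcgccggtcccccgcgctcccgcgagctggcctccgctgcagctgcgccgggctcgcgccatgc

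A window was at hand for 134 of the 165 called genes. AGGTCA, searched on both strands, was in 16.2% of all 33469 windows, in 7 of 43 windows (16.3%) of genes with a higher interaction and in 16 of 104 (15.4%) of genes with a lower one. Of the genes smaller at 72 h it was in 5 of 14 windows, those of Acot4, Creb3l3, Cyp4a3, Eci1 and Rab30. The full motif, 2 copies of AGGTCA in a row with 1 base between them, contains this hexamer. An exact match to it was in 0.0538% of all windows and in 0 of those of the called genes. Exact matches are so rare that this 0 says little. Near matches and sites outside the 300-base windows were not searched, and the Acot4 window holds a near match around its marked hexamer. A match is a description of the letters in the window and does not show binding.

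The study's list of 14 PPARα pathway genes had 13 called higher and 0 lower at 24 h (3.91% and 4.33% of all genes) and 13 and 0 at 72 h (9.24% and 13%), with a median response of 3.19 and then 2.51. The interaction was called higher for 1 (Fabp3) and lower for 3 (Cd36, Ehhadh and Cpt1a), and the median was -0.281. It was below 0 for 12 of 14, beside 6522 of all 14217 genes. The study does not state how it chose the list, which is therefore not taken as independent evidence of a direction. Members without a called interaction included Cpt1b, the muscle form of the carnitine acyltransferase, at -0.02 ± 0.22, Hadha, of the mitochondrial trifunctional protein, at -0.06 ± 0.13, Cpt2, the inner membrane acyltransferase, at -0.12 ± 0.24, and the carnitine carrier Slc25a20 at -0.22 ± 0.18. The liver fatty acid binding protein Fabp1 had -0.28 ± 0.28 and the acyl-CoA synthetases Acsl3 and Acsl1 had -0.28 ± 0.20 and -0.60 ± 0.16 (other Acsl1 probe set -0.18). Acox3, a peroxisomal acyl-CoA oxidase, had -0.58 ± 0.21, the uncoupling protein Ucp2 -0.70 ± 0.34 and Fabp5 0.80 ± 0.28. A missed threshold does not show that these responses were equal at both times.

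**Figure D4:**
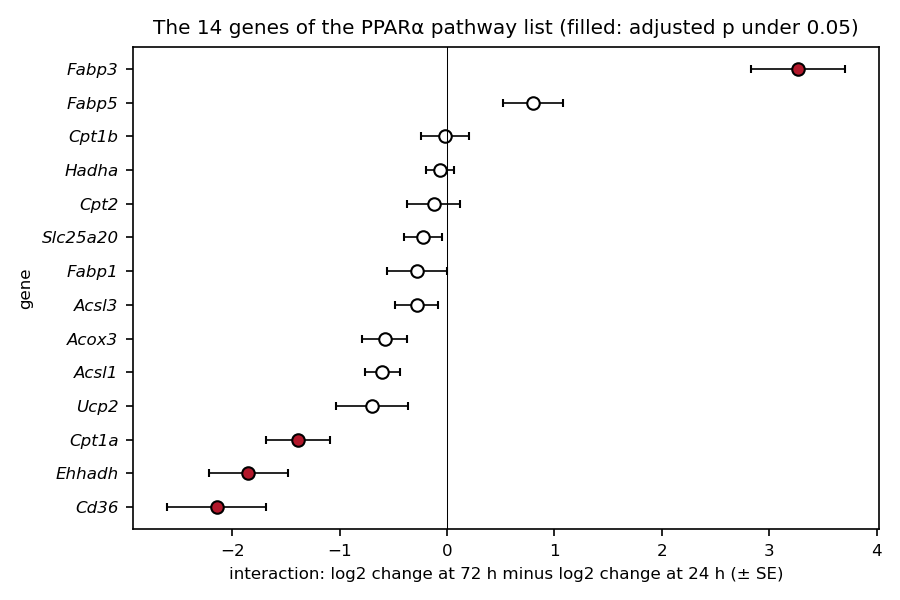
Interaction (x axis, log2 change at 72 h minus log2 change at 24 h, ± SE of the fit) of the 14 genes of the PPARα pathway list (y axis), with filled points for an adjusted p under 0.05. Fabp3 lies at 3.27, Cd36, Ehhadh and Cpt1a lie between -2.14 and -1.39, and Cpt1b lies at -0.02.

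Lists of oxidation genes followed the same pattern in part. Of 31 measured genes of peroxisomal oxidation and peroxins, 20 were called higher at 24 h and 21 at 72 h, beside 3.91% and 9.24% of all genes. Of their interactions 0 were higher (0.338% of all genes) and 3 lower (0.675%), those of Ehhadh, Acot4 and Acot3, with a median of -0.146. Pex11a, which divides peroxisomes, had an interaction of -0.12 ± 0.32 and catalase (Cat) -0.02 ± 0.15, neither called. Of 22 genes of mitochondrial β-oxidation and ketogenesis, 20 were higher at each time and 2 interactions were lower (Eci1 and Cpt1a), with a median of -0.174. Their interactions were below 0 for 20 of 22, beside 6522 of all 14217 genes. Of 9 CYP4 hydroxylases, 2 were called higher and 2 lower at 24 h and 3 and 3 at 72 h, with median responses of 0.0482 and -0.335, and 2 interactions were lower (Cyp4a3 and Cyp4a1), with a median of -0.842. The genes of the receptors had no called interaction, with 0.55 ± 0.28 for Ppara (adjusted p = 0.47), 0.30 ± 0.22 for Ppard (0.65) and 0.39 ± 0.34 for Pparg (0.72).

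Il1r2 and Hrg, which fell with time in the EMD cultures, had the largest negative interactions, and 2 probe sets without a symbol that rose with DMSO, with EMD changes of 0.13 and 0.28, had -2.65 and -2.64. Hrg, the plasma protein histidine-rich glycoprotein, was at 12.97, 12.82 and 12.35 with DMSO and 11.96, 11.31 and 11.38 with EMD at 24 h, and at 12.44, 13.03 and 12.92 against 9.40, 7.93 and 8.41 at 72 h. The late EMD arrays were the lowest by far, and the interaction was -3.05 ± 0.52 (adjusted p = 0.013). Il1r2, the decoy receptor for interleukin-1, fell with time in both arms, from 9.09, 9.91 and 10.22 to 7.81, 8.63 and 9.10 with DMSO and from 8.52, 8.86 and 7.98 to 3.71, 4.52 and 4.22 with EMD (interaction -3.08 ± 0.45, adjusted p = 0.0042). Vtn, the adhesive plasma protein vitronectin, was at 12.83, 12.96 and 12.70 against 12.52, 12.28 and 12.29 at 24 h and at 12.61, 12.83 and 12.72 against 11.01, 10.01 and 9.97 at 72 h (interaction -1.92 ± 0.32). Hsd11b1, which regenerates active glucocorticoid, was at 11.84, 12.04 and 12.45 against 11.56, 11.70 and 11.97 at 24 h, where the arrays overlapped, and at 11.85, 12.39 and 12.50 against 9.75, 9.55 and 10.01 at 72 h (interaction -2.11 ± 0.30, adjusted p = 0.0039).

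In other genes the level was higher at 72 h than at 24 h with DMSO and lower with EMD. The change of Bhmt with DMSO and those of Slco1a1 and Ghr with EMD were not called. Cyp2c11, the cytochrome P450 of male rat liver, rose by 1.02 with DMSO and fell by 1.76 with EMD (interaction -2.78 ± 0.50), and Slco1a1, an organic anion transporter, rose by 1.85 with DMSO, with a change of -0.66 with EMD (interaction -2.51 ± 0.53). Ghr, the growth hormone receptor, rose by 1.21 with DMSO and its change with EMD was -0.84 (interaction -2.06 ± 0.39, other probe set -1.02 and not called). Bhmt, the betaine-homocysteine methyltransferase, fell by 1.55 with EMD, and its change with DMSO was 1.03 (interaction -2.58 ± 0.56). Probe sets of the Cyp2c family may read related transcripts.

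Of 33 measured genes of plasma proteins, complement and coagulation, 0 were called higher and 5 lower at 24 h and 0 and 25 at 72 h, beside 4.33% and 13% lower of all genes. The interaction was called lower for 1, beside 0.675% of all genes, the protease inhibitor Serpina1 (-1.11 ± 0.22), with 27 of 33 below 0 and a median of -0.624. Of 21 acute phase genes, 5 interactions were lower and 0 higher, with a median of -0.63, those of the interleukin-1 receptors Il1r2 and Il1r1 and of Itih4 (-1.42 ± 0.29), Itih3 (-1.19 ± 0.20) and A2m (-1.18 ± 0.26), which encode plasma proteins. Of 35 genes of the urea cycle and amino acid catabolism, 2 were lower (Bhmt and Agxt), 27 were below 0 and the median was -0.479. The hepatocyte markers, some of which stand in these lists too, had summed levels of 16.5 to 16.6 with DMSO and 16.3 to 16.5 with EMD at 24 h, and of 16.7 to 16.8 and 16.1 to 16.3 at 72 h. Of 11, 1 had a called interaction (Serpina1), and the part of a lower share of hepatocyte RNA in the falls was not tested. Over all 14217 genes 6522 interactions were below 0. The share of all genes called lower, 0.675%, stands beside each of these counts of lower interactions and the next. Of 28 genes of the ER stress and integrated stress response, 2 were lower, the glutathione-degrading Chac1 (-1.71 ± 0.27, adjusted p = 0.0082) and the mitochondrial folate enzyme Mthfd2 (-0.97 ± 0.20).

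**Figure D5:**
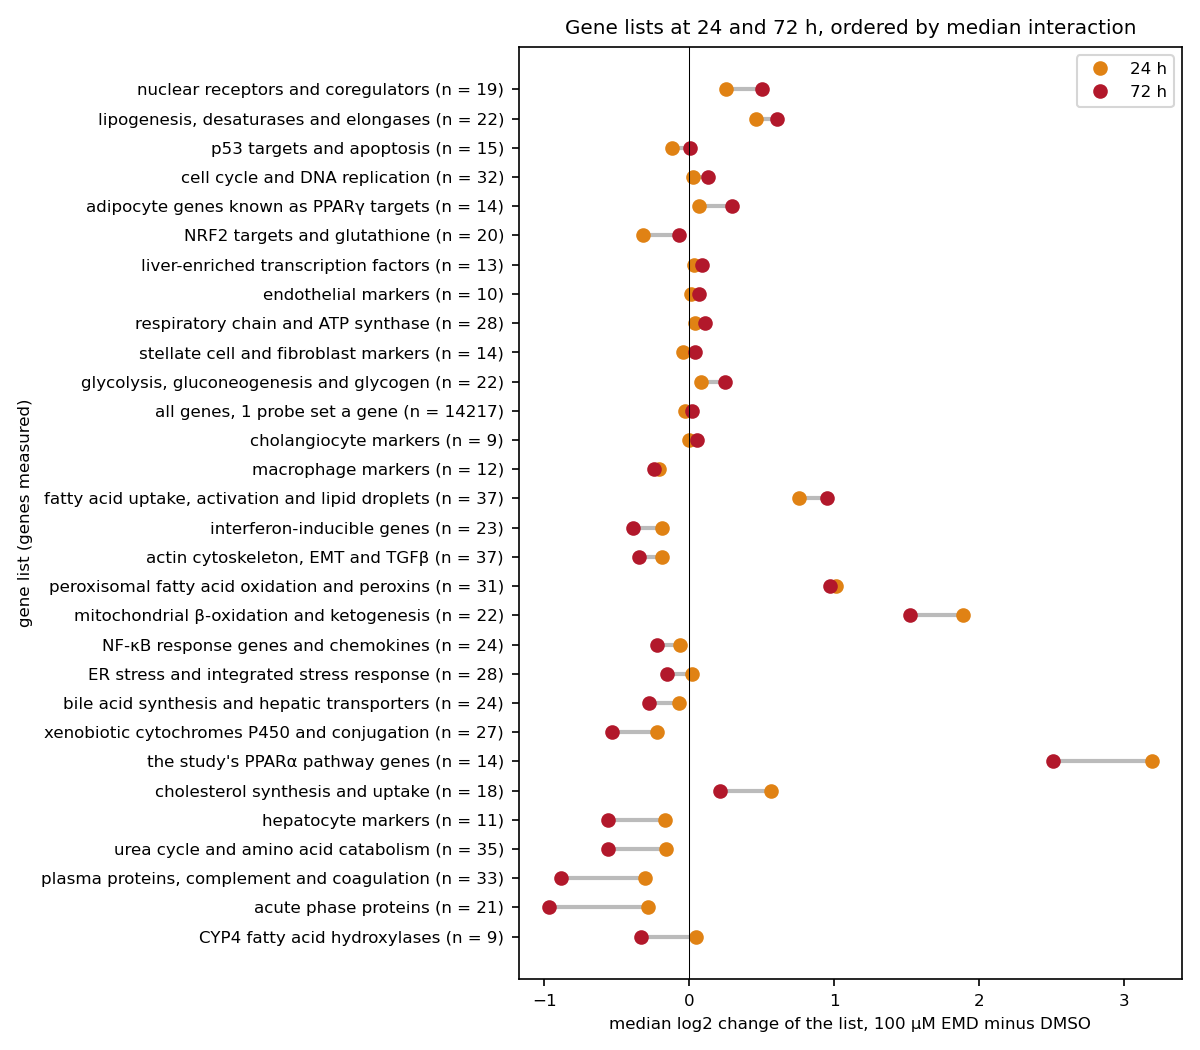
Median response to 100 µM EMD (x axis, log2 change) at 24 h (orange) and 72 h (red) of the gene lists (y axis, with the number of genes measured), ordered by the median interaction. The PPARα list moved from 3.19 to 2.51, and acute phase proteins from -0.285 to -0.968.

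A last set of genes rose with time in culture with DMSO and less, or not, with EMD. Lhfpl6, a membrane protein of the tetraspan type, was at 4.02, 4.44 and 3.91 with DMSO and 4.01, 3.72 and 4.05 with EMD at 24 h, and at 9.07, 9.02 and 8.02 against 6.97, 5.42 and 5.35 at 72 h. It rose in both arms, and the interaction was -2.59 ± 0.52 (adjusted p = 0.030, with a dim second probe set at -0.02). Map1b, a microtubule-associated protein, was at 3.21, 3.20 and 3.25 against 3.48, 3.19 and 3.61 at 24 h and at 6.34, 5.89 and 5.61 against 4.61, 3.95 and 3.87 at 72 h (interaction -2.01 ± 0.32, other probe sets -0.96 and -0.59, neither called). Ptprz1, a receptor phosphatase, had -1.86 ± 0.40 (other probe set -0.28) and Mfsd2a, a transporter of lysophospholipids, -1.88 ± 0.31. Between the times Ptprz1 rose by 1.85 and Mfsd2a by 1.74 with DMSO, and with EMD they changed by -0.01 and -0.14.

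Over all 31042 probe sets tested, 3598 had an unadjusted p under 0.05 in limma's test of the interaction. Of the 29 gene lists 13 had no called interaction in this test, and 44 of their 255 listed members had such a p. They included cholesterol synthesis and uptake (median -0.295), adipocyte genes known as PPARγ targets (0.134), cell cycle and DNA replication (0.138), p53 targets and apoptosis (0.139), NF-κB response genes (-0.208), interferon-inducible genes (-0.0197) and the respiratory chain (0.0796).

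EMD was called in opposite directions at the 2 times for 3 probe sets. Ifrd1, a transcriptional coregulator, was at 10.67, 10.40 and 10.39 with DMSO and 10.95, 11.11 and 11.01 with EMD at 24 h, and at 11.03, 11.16 and 11.19 against 10.55, 10.34 and 10.49 at 72 h. The EMD arrays were all above the DMSO arrays at 24 h and all below them at 72 h, with an interaction of -1.20 ± 0.13 (adjusted p = 0.00079). Appbp2 was at 7.12, 7.37 and 7.10 against 7.60, 7.48 and 7.57 and then at 8.02, 8.04 and 7.88 against 7.75, 7.64 and 7.53 (interaction -0.69 ± 0.12, other probe sets -0.68, -0.45 and -0.06, none called). Gcat, a mitochondrial enzyme of threonine breakdown, went the other way, at 7.91, 7.96 and 8.16 against 7.66, 7.52 and 7.06 and then at 7.21, 7.32 and 7.44 against 7.59, 8.09 and 7.86 (interaction 1.12 ± 0.21, adjusted p = 0.022).

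The same contrast at 30 µM shares the DMSO arrays and called 292 probe sets (0.941%, with 128 or 0.412% higher and 164 or 0.528% lower). Its values beside those at 100 µM were 3.23 and 4.69 for Scd2, 3.89 and 3.27 for Fabp3, 4.39 and 3.53 for Aqp3, -2.48 and -2.82 for Cyp4a3, -1.52 and -1.60 for Angptl4, -1.25 and -3.05 for Hrg, 0.84 and 2.55 for Soat1 and -0.20 and -2.51 for Slco1a1. In the difference between the doses, in which the DMSO arrays cancel, 2 probe sets were called (0.00644%), and none of the genes named so far was among them. Cd302, a lectin-like receptor, had -1.69 at 100 µM and -0.16 at 30 µM, a difference of -1.54 ± 0.21 (adjusted p = 0.030), and a probe set without a gene symbol had 0.93 and 2.89, a difference of -1.96 ± 0.25 (adjusted p = 0.015).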

How the data were processed

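RNA of rat primary hepatocytes was hybridised to Affymetrix rat expression arrays. The titles of the samples gave the groups and the replicate numbers. The deposited log2 values were made by the authors with the RMA algorithm, which subtracts background, equalises the distributions of the arrays and condenses probes to probe sets, so a shift shared by most genes is removed and low values are compressed. No software version was found in the sources used here. Of 31099 probe sets the 57 controls were left out. The platform annotation gave 20826 probe sets 1 symbol, 436 several and 9780 none, and 20758 of the first matched GRCr8 by gene ID. Some genes of the lists have no probe set with a symbol of their own and were not analysed here.

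The 6 groups were fitted in 1 model of 18 arrays with limma 3.58.1 (lmFit and eBayes) in R 4.3.3, two-sided, with Benjamini-Hochberg adjustment over 31042 probe sets and a threshold of 0.05. The study's methods name no per-gene test for this contrast. The text names the 15 largest positive and 15 largest negative called interactions with 1 symbol and no overlap, up to 4 called members of each of 29 lists, the PPARα list of the study, the genes of the 3 PPAR receptors and the 3 calls in opposite directions. In the lists a gene was read through its brightest probe set. The members and lists were chosen with earlier results of these data known, and the comparison of the doses was added after results were seen. Alternatives were the fit of 12 arrays, 2 replicate blocks, cyclic loess, equal array medians, moderation with a trend, array weights, a filter on dim probe sets and leaving out each of 12 arrays. On simulated data over 31042 probe sets the interaction test recovered 10% of changes of 0.5, 80% of 1, 98% of 2 and 98% of 3 on the log2 scale, with 6 false calls. Arrays of a group differed by a root mean square of 0.208 to 0.363, so none was taken for a copy of another. Per the study's methods the replicates were biological and the cells of each animal received every treatment, but no source used here says which arrays share an animal, so the p-values rest on how far these arrays spread.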

Additional observations from a re-analysis of the deposited data

Results flagged for a closer look

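A response that differed between the times by the test of the difference itself was found for 76 probe sets higher and 139 lower at 72 h, and the genes named with a called interaction in the report all meet this condition. The 3 calls in opposite directions had interactions of -1.20 (Ifrd1), -0.69 (Appbp2) and 1.12 (Gcat). The time dependence at 100 µM differed from that at 30 µM for Cd302 (-1.54) and for a probe set without a symbol (-1.96). Groups of 3 arrays are too small to test single arrays as outliers.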

How the results depend on the processing

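With 1 array left out in turn the ranges were 57 to 800 for the called interactions, 18 to 355 for the higher and 39 to 445 for the lower ones, 41 to 581 for those called at 72 h only and 9 to 29 for those smaller at 72 h. They were 1207 to 2152 for the calls at 24 h, 3664 to 6097 at 72 h, 4691 to 7236 for DMSO over time and 2285 to 4453 for EMD over time. The arrays that moved these 4 by over 1.5 times were EMD 24 h replicate 2 (1207 at 24 h) and, for EMD over time, EMD 72 h replicate 2 (2285) and EMD 24 h replicate 3 (2468). The fit of the 12 arrays gave 76 interactions (28 higher, 48 lower), 55 at 72 h only and 9 smaller at 72 h. Array weights gave 1090 (418 and 672), 819 and 41, and 8192 calls at 72 h and 6849 for EMD over time. Deviations from the group means correlated over 0.1 in 5 of 6 same-numbered pairs at 1 time (median r 0.308) and 10 of 12 across times (0.284), against 3 of 12 (-0.188) and 4 of 24 (-0.159) for different numbers, a hint from the data that equal numbers share a source. The cells of each animal received every treatment, but no source ties a number to an animal and not every pair passed 0.1, so the main design has no block. The replicate block gave 534 (178 and 356) and 364 at 72 h only, and the replicate block within time 782 (272 and 510), 521, 36 smaller at 72 h and 3032 calls at 24 h. The 215 called probe sets were all called in both and with array weights, and the cause of these shifts was not tested. Cyclic loess (203), equal array medians (209), moderation with a trend (173) and the filter on dim probe sets (245) moved no count by over 1.5 times. All 51 named calls kept their direction under every alternative that was run on them (the filter on dim probe sets removed 2 of the 64 named probe sets), and 26 were lost in the fit of 12 arrays, 10 with the trend and 3 after cyclic loess. The 3 arrays a group and the dim start of many late rises limit the sizes given.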

Other observations

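The genes below were chosen after their values were seen. The 3 probe sets of Jun, a subunit of the transcription factor AP-1, had interactions of -1.02, -0.81 and -0.74, and in each the DMSO cultures rose with time (by 0.67, 0.56 and 0.68) while the EMD cultures changed by -0.35, -0.25 and -0.06. Klf6, a zinc finger factor, had -1.10 and -1.06 in 2 called probe sets of 3. Of the 37 measured genes of the actin cytoskeleton, epithelial-mesenchymal transition and TGFβ list 0 had a called interaction (median -0.109). Tpm3, an actin-binding tropomyosin, had -0.70, -0.61 and -0.56 in 3 called of 12, and its brightest probe set was not among the called ones. Lasp1, another actin-binding protein, had -1.26 and -0.88 in 2 of 2. Single probe sets of the vasoconstrictor Edn1 (-1.50 ± 0.28), of Rgs2, which curbs G protein signals (-1.65 ± 0.23), and of the sodium-calcium exchanger Slc8a1 (-1.64 ± 0.28) showed the same order of the arms, with DMSO rises of 1.63, 1.92 and 2.02.

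Higher at 72 h were all 3 probe sets of the kinase Stk17b (1.27, 1.12 and 0.95), for which the EMD cultures rose by 1.31, 1.31 and 0.86, and both of the mitochondrial carrier Ucp3 (1.05 and 0.88). The mitochondrial protease Lonp1 (interaction 1.20 ± 0.25) and thioredoxin reductase Txnrd2 (1.14 ± 0.15) fell by 0.90 and 1.10 with DMSO, and their changes with EMD were 0.30 and 0.04. The glycerol kinase gene Gk was read in different ways by its probe sets, with a called interaction of 1.34 ± 0.19 in one and -0.45 ± 0.22, not called, in the brightest.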
